A study of Mus musculus with 6 samples.

Results

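The unfolded protein response and the integrated stress response were followed through 10 genes with known roles in them: Atf4, Atf5, Atf6, Ddit3, Xbp1, Hspa5, Dnajb9, Herpud1, Trib3 and Chac1. The set was chosen with earlier results of these data known, so its counts are a description and not independent support. All 10 were among the 17142 genes of the expression table, and 9 passed the filter on low values, as did 11111 genes in all. The libraries were bulk RNA-seq of primary alveolar macrophages, phagocytes that live on the airspace side of the lung, taken from mice exposed to an allergen, in a single challenge by the title of the study. Of the 6 libraries, 3 carried the genotype label KO, for deficiency of Trim33, and 3 the label WT. Trim33 encodes a nuclear E3 ubiquitin ligase of the tripartite-motif family. Both groups were allergen exposed, so the comparison asks how the genotypes differ after allergen and not what allergen does. The Trim33 allele, any Cre driver, the allergen, the strain, the age, and whether a library is 1 animal or a pool are stated in none of the sources used here.

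The endoplasmic reticulum (ER) folds secreted and membrane proteins, and the unfolded protein response adjusts its capacity through the sensors IRE1, PERK and ATF6. IRE1 splices the Xbp1 mRNA so that it encodes an active transcription factor, ATF6 is itself cut to release one, and PERK phosphorylates the translation factor eIF2 alpha. Other kinases that sense amino acid shortage, haem shortage or double-stranded RNA phosphorylate the same factor, and this shared branch is the integrated stress response. It lowers protein synthesis as a whole while allowing translation of the Atf4 and Atf5 mRNAs, whose upstream reading frames otherwise hold it back. Because splicing, cleavage and translation carry much of this signalling, totals per gene show the transcripts of these genes and not the activity of the sensors. Alveolar macrophages clear surfactant, inhaled particles and dying cells, and make abundant secreted and lysosomal proteins.

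The genotype labels were checked first. Trim33 had 2.63, 3.34 and 3.98 TPM in the KO libraries, against 6.83, 10.97 and 6.86 TPM in the WT libraries, where TPM is a length-scaled share of the transcripts of a library. All KO values lay below all WT values, with a log2 difference of -1.08 ± 0.19 (SE; limma adjusted p = 0.0114), and p was 0.1 in a two-sided exact permutation test, the lowest value possible with 3 libraries against 3. Between 15182 and 15535 genes were above 0 in a library, and the sequencing depth is unknown, so no counting interval is given. Because the labels tie no library to an animal, the p-values rest on the spread between libraries alone, and that spread may be technical. Over all genes, 497 were higher and 1129 lower in KO, and the median log2 difference was -0.15. Median-ratio scaling, which sets the typical gene equal between libraries, brought that median to -0.0057 and gave 592 higher and 394 lower genes, and quantile normalization gave 559 higher and 587 lower.

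The genes moved in unequal ways. Atf5, Dnajb9 and Herpud1 were called lower in KO, at between 59.4% and 66.9% of the mean WT level, while none of the 9 tested genes was called higher. Below, genes said to rise or fall are called genes. The 6 others, Atf4, Atf6, Ddit3, Xbp1, Hspa5 and Trib3, did not pass the test. Calls come from limma on log2(TPM + 1) with a Benjamini-Hochberg threshold of 0.05 over all 11111 genes, and log2 differences are KO minus WT on that scale. The 3 called lower are 33.3% of the 9 tested, where 10.2% of all tested genes were called lower and 4.47% called higher. At an unadjusted p under 0.05, limma gave 4 lower and 0 higher among the 9. The share of all tested genes at that looser threshold was not taken, here or for the lists below. Such unadjusted counts therefore cannot be set against a background. After median-ratio scaling 2 of the 9 were called lower, against 3.55% of all genes. A negative difference was found for 8 of the 9, and for 71.9% of all genes. KO values lay wholly below WT values for 4 of the 9 (the 3 called genes and Xbp1), where 34.6% of all genes did so. The median log2 difference of the 9 was -0.20, against -0.15 over all genes, and after median-ratio scaling it was -0.049, against -0.0057.

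**Figure D1:**
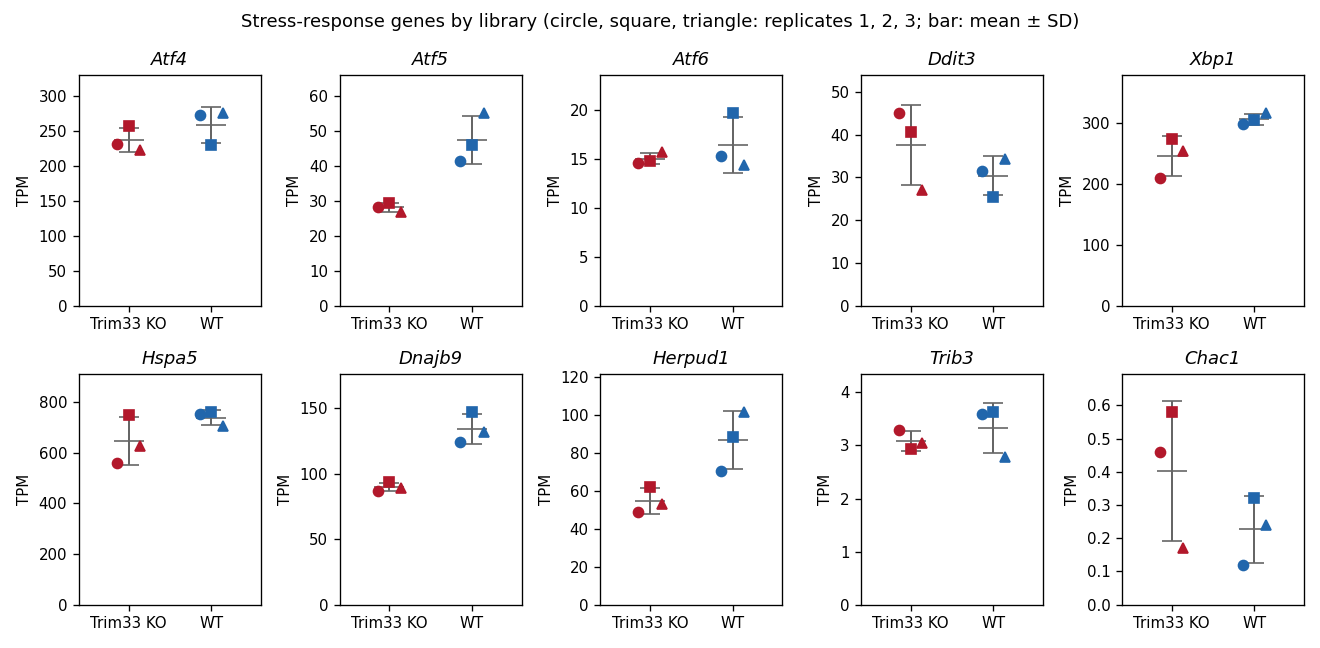
TPM of each of the 10 genes in each library, Trim33 KO on the left and WT on the right, with circles, squares and triangles for replicates 1, 2 and 3 and bars for the mean ± SD (n = 3); each panel has its own axis from 0. KO points lie wholly below WT points for Atf5, Xbp1, Dnajb9 and Herpud1, and the groups overlap for the other genes.

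Promoter sequence of the ER chaperone gene Hspa5 and of Herpud1 is shown because these 2 hold the classical ER stress motifs. Herpud1 was called lower in KO and Hspa5 was not called, and the difference between them was not tested. The sequences are RefSeq's on GRCm38.p6, each 140 bases on the plus strand that end 1 base before the annotated transcription start, at chr2:34771950-34772089 for Hspa5 and chr8:94386289-94386428 for Herpud1. Capitals mark the motif matches described after them.
Hspa5: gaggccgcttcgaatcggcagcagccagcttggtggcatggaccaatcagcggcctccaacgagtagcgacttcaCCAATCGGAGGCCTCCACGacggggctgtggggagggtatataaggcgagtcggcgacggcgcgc
Herpud1: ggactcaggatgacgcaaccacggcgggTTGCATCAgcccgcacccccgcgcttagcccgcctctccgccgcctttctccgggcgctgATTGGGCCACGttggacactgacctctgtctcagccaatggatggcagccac
In Hspa5 the capitals are the ER stress response element, ERSE, which is CCAAT followed after 9 bases by CCACG and is known to be bound by NF-Y together with ATF6 or XBP1. In Herpud1 the second run of capitals is ERSE-II, which is ATTGG followed after 1 base by CCACG. Its first run is the reverse complement of TGATGNAA, a short core of the C/EBP-ATF response element to which ATF4 binds with C/EBP partners.

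The promoter table gave 10 promoters for 9 of the genes, with a pair for Atf5, each covering 250 bases before the start and 50 after it, and both strands were searched. Atf6 was not matched. ERSE was in the Hspa5 promoter alone, at -65 to -47 from the start, and in 0.119% of all 32851 promoters. ERSE-II was in the Herpud1 promoter alone, at -52 to -42, and in 0.0365% of all promoters. The unfolded protein response element core TGACGTGG, bound by XBP1, was in 0 of the 10 and in 0.676% of all. The longer C/EBP-ATF core TGATGNAAT was also in 0 of the 10, and in 0.965% of all. The shorter TGATGNAA, which lies within the longer one and was added after the promoters had been read, was in 3 of the 10 (Herpud1, Chac1 and Trib3) and in 3.97% of all. A match describes letters and not binding, and these windows are short.

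Among the transcription factors of the integrated stress response, Atf5 had the most negative log2 difference of the tested genes of the set. Atf5 (Entrez gene 107503, chr7:44812256-44816658 on GRCm38.p6) encodes a basic leucine zipper factor that eIF2 alpha phosphorylation induces through translation and that is linked to the mitochondrial stress response. It had 28.2, 29.5 and 26.9 TPM in KO libraries, against 41.4, 45.9 and 55.2 TPM in WT libraries. The KO libraries were close to each other and all lay below the lowest WT library. The means were 28.2 ± 1.33 TPM in KO and 47.5 ± 7.01 TPM in WT (SD, n = 3 each), a log2 difference of -0.72 ± 0.11 (SE; 95% interval -0.97 to -0.47; limma adjusted p = 0.00665). Only 1.85% of tested genes had so negative a difference. The call held in all 16 alternative settings, with log2 differences between -0.82 and -0.57. In the GENCODE annotation, exons of Atf5 overlap those of Nup62 and Il4i1 on the opposite strand by up to 82 bases. In RefSeq coordinates only the span of Nup62 (chr7:44816088-44831836) overlaps Atf5, and Il4i1 (chr7:44836288-44840809) lies apart from it. Which annotation the counting used, and whether it used strand, is stated in none of the sources used here. Nup62 had 30.2 ± 3.85 TPM in KO and 34.6 ± 1.71 TPM in WT and was not called, and Il4i1 was under the filter. In bulk RNA, fewer cells of a type and less RNA per cell cannot be told apart.

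Atf4, the central factor of the response (chr15:80255184-80257545), was an abundant transcript that did not pass the test. It had 232, 257 and 223 TPM in KO libraries, against 272, 229 and 275 TPM in WT libraries. The groups overlapped, since KO replicate 2 lay above WT replicate 2. Its log2 difference was -0.12 ± 0.096 (SE; 95% interval -0.34 to 0.091; limma adjusted p = 0.361) and turned to 0.032 after median-ratio scaling. Within each library, Atf5 TPM divided by Atf4 TPM was 0.122, 0.115 and 0.121 in KO and 0.152, 0.20 and 0.201 in WT. These ratios do not depend on the scaling of a library and lay wholly lower in KO, as a description with no test because the pair was chosen after its values were seen.

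Ddit3 encodes CHOP, an ATF4-induced factor known for promoting cell death under lasting stress (chr10:127290793-127296291). It had 45.0, 40.7 and 27.1 TPM in KO libraries, against 31.4, 25.5 and 34.3 TPM in WT libraries. KO replicates 1 and 2 lay above all WT libraries, and KO replicate 3 lay within the WT range. The log2 difference was 0.28 ± 0.19 (SE; 95% interval -0.15 to 0.71; limma adjusted p = 0.302), and the gene was not called. Leaving out both KO replicate 3 and WT replicate 1 gave 0.52 with an adjusted p of 0.0228, the only one of 16 alternatives with a call. Leaving out 1 library gave between 0.135 (without KO replicate 1, adjusted p = 0.653) and 0.49 (without KO replicate 3, adjusted p = 0.0556), with 0.159 and an adjusted p of 0.643 without WT replicate 2. The summed TPM of 22 type I interferon genes was 5512, 4760 and 2788 in KO libraries, against 1971, 727 and 1224 in WT libraries, so KO replicate 3 was also the lowest KO library there. Whether this bears on the Ddit3 values was not tested. The Ddit3 to Atf5 ratio was 1.59, 1.38 and 1.01 in KO and 0.758, 0.556 and 0.622 in WT, wholly higher in KO, again with no test.

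Trib3 and Chac1, target genes of ATF4 and CHOP, were the least abundant of the set. Trib3, a pseudokinase that dampens ATF4 activity (chr2:152337425-152344060), had 3.30, 2.93 and 3.05 TPM in KO libraries, against 3.59, 3.63 and 2.79 TPM in WT libraries. The groups overlapped, and the log2 difference of -0.078 ± 0.15 (SE; limma adjusted p = 0.714) turned to 0.041 after median-ratio scaling and 0.010 after quantile normalization. Chac1, which encodes a glutathione-degrading enzyme (chr2:119351242-119354326), had 0.46, 0.58 and 0.17 TPM in KO libraries, against 0.12, 0.32 and 0.24 TPM in WT libraries. These levels are under the filter of 1 TPM in 3 libraries, and a two-sided exact permutation test gave p = 0.3 with the groups overlapping.

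Of the ER-facing transcription factors, Xbp1 lay lower in every KO library without passing the test. Xbp1, the target of IRE1 splicing and an inducer of ER chaperone and degradation genes (chr11:5520641-5525993), had 210.1, 275 and 254 TPM in KO libraries, against 298, 305 and 316 TPM in WT libraries. The KO libraries were spread more widely, and the highest of them lay below the lowest WT library. The means were 246 ± 32.9 TPM in KO and 307 ± 9.21 TPM in WT (SD, n = 3 each), a log2 difference of -0.32 ± 0.10 (SE; 95% interval -0.55 to -0.096; limma adjusted p = 0.057). Without WT replicate 1 the adjusted p was 0.0431, without KO replicate 1 the difference was -0.21 with an adjusted p of 0.207, and after median-ratio scaling the difference was -0.17 with an adjusted p of 0.367. The spliced and unspliced forms cannot be separated in totals per gene. Atf6 (chr1:170704457-170868585), the sensor that becomes a factor, had 14.6, 14.9 and 15.7 TPM in KO libraries, against 15.3, 19.7 and 14.4 TPM in WT libraries. The groups overlapped, with WT replicate 2 above the rest. The log2 difference of -0.11 ± 0.13 (SE; limma adjusted p = 0.541) turned to 0.037 after median-ratio scaling, 0.057 after quantile normalization and 0.0185 without WT replicate 2.

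The ER effectors Dnajb9 and Herpud1 fell, while the chaperone Hspa5 did not pass the test. Hspa5 encodes BiP, the main HSP70 chaperone of the ER, which also holds the sensors inactive (chr2:34772090-34776529). It was the most abundant gene of the set, with 559.9, 748 and 626 TPM in KO libraries, against 751, 759.7 and 704 TPM in WT libraries. KO replicate 2 lay within the WT range and the other KO libraries below it. The log2 difference was -0.20 ± 0.11 (SE; 95% interval -0.44 to 0.031; limma adjusted p = 0.182), and between -0.32 and -0.049 over the 16 alternatives.

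Dnajb9 encodes ERdj4, a J-domain partner of BiP that binds IRE1 and keeps it inactive (chr12:44205897-44210068). It had 87.1, 93.6 and 89.4 TPM in KO libraries, against 124, 147 and 132 TPM in WT libraries. The KO libraries lay close together and wholly below the WT libraries. The means were 89.99 ± 3.29 TPM in KO and 134 ± 11.6 TPM in WT (SD, n = 3 each), a log2 difference of -0.57 ± 0.088 (SE; 95% interval -0.77 to -0.38; limma adjusted p = 0.00626). It was called lower in all 16 alternatives, with log2 differences between -0.63 and -0.42.

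Herpud1 encodes an ER membrane protein that assembles the HRD1 complex, which sends misfolded proteins out for degradation (chr8:94386429-94395371). It had 48.8, 62.3 and 53.2 TPM in KO libraries, against 70.7, 88.4 and 102 TPM in WT libraries. The groups did not overlap, with WT replicate 1 nearest to the KO libraries. The means were 54.7 ± 6.89 TPM in KO and 86.9 ± 15.5 TPM in WT (SD, n = 3 each), a log2 difference of -0.65 ± 0.14 (SE; 95% interval -0.96 to -0.34; limma adjusted p = 0.0200). This call was lost after median-ratio scaling (-0.50, adjusted p = 0.0572), without the filter (0.0518), and without KO replicate 1 (0.0762), WT replicate 2 (0.0812) or WT replicate 3 (0.0705).

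Relative to Hspa5 in the same library, Dnajb9 was 0.155, 0.125 and 0.143 in KO and 0.166, 0.194 and 0.187 in WT, and Herpud1 was 0.0871, 0.0832 and 0.0849 in KO and 0.0942, 0.116 and 0.145 in WT. Both ratios lay wholly lower in KO. The Xbp1 to Hspa5 ratio overlapped between the groups, at 0.375, 0.367 and 0.406 in KO and 0.397, 0.402 and 0.450 in WT, as did the Ddit3 to Atf4 ratio. These ratios too were chosen after the values were seen and carry no test. Over single genes, the groups did not overlap for 44.4% of those tested, and no such share was taken over ratios.

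**Figure D2:**
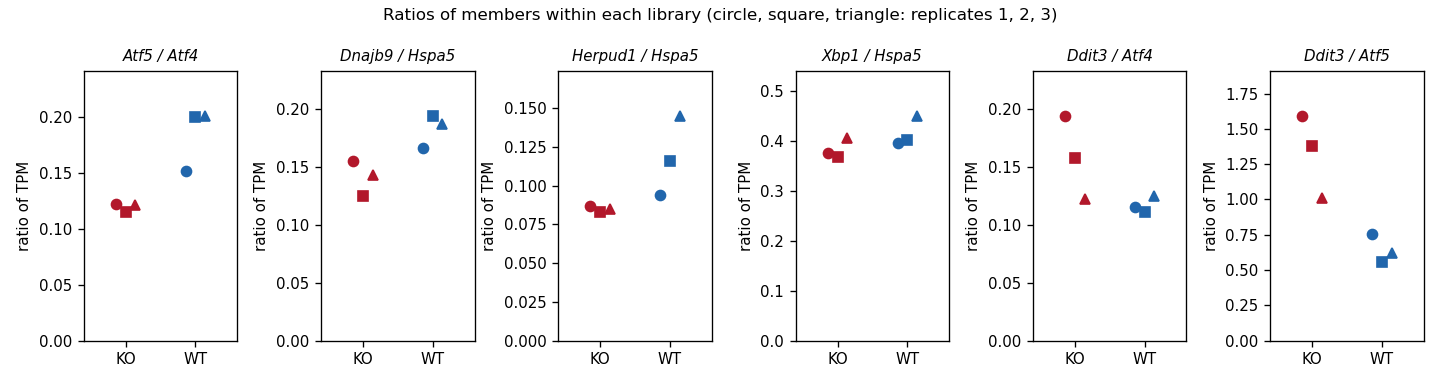
Ratio of the TPM of paired genes within each library, KO on the left and WT on the right, 1 point per library (circles, squares and triangles for replicates 1, 2 and 3), each panel with its own axis. KO points lie wholly below WT points for Atf5 over Atf4, Dnajb9 over Hspa5 and Herpud1 over Hspa5, wholly above them for Ddit3 over Atf5, and overlap them for the other 2 ratios.

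**Figure D3:**
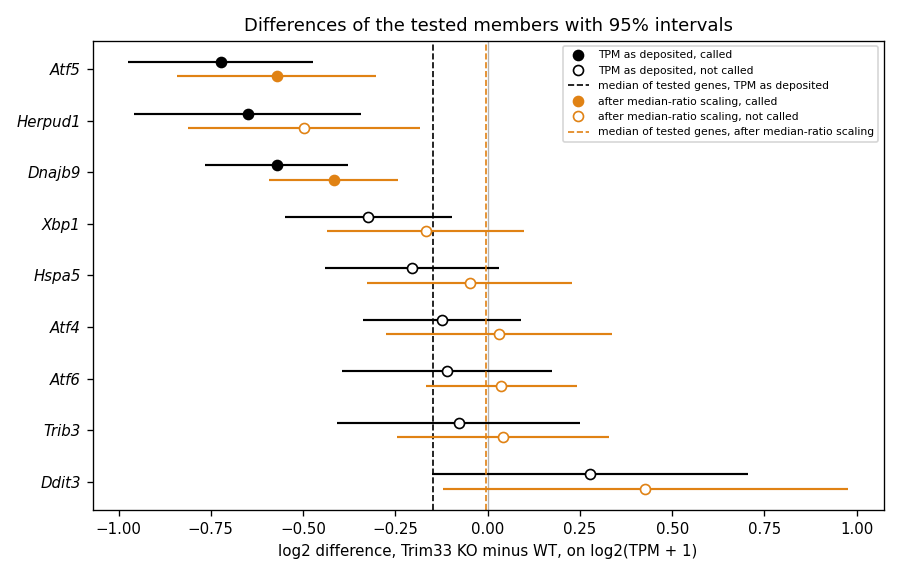
Log2 difference (KO minus WT) of the 9 tested genes with its 95% interval, on TPM as deposited in black and after median-ratio scaling in orange, filled where called; dashed lines are the medians of all tested genes. Scaling moves every point to the right, and Atf5 and Dnajb9 remain called while Herpud1 does not.

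**Figure D4:**
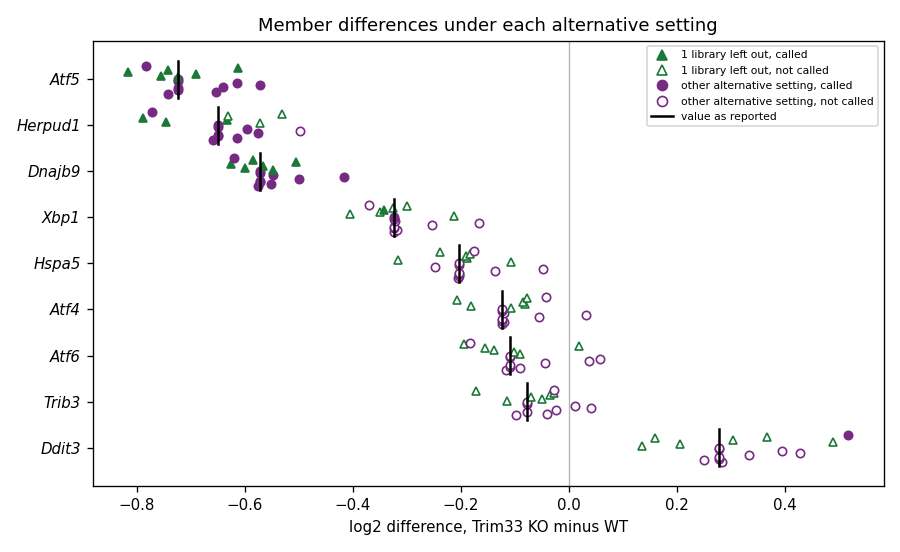
Log2 difference (KO minus WT) of each tested gene under each alternative setting, triangles for fits that leave out 1 library and circles for the other settings, filled where called, with a black bar at the reported value. Points of Atf5, Herpud1, Dnajb9, Xbp1 and Hspa5 lie below 0 and those of Ddit3 above it, and Atf4, Atf6 and Trib3 have points on both sides.

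TPM is scaled by length, so levels can be set side by side. By mean TPM in KO the order was Hspa5, Xbp1, Atf4, Dnajb9, Herpud1, Ddit3, Atf5, Atf6, Trib3 and Chac1. The ranges of Xbp1 and Atf4, and of Ddit3 and Atf5, overlapped there. In WT the order was the same except that Atf5 came before Ddit3, and no neighbouring ranges overlapped.

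The genes with library profiles most like those of Atf5, Hspa5 and Ddit3 were found by the root mean square difference of centred log2(TPM + 1) values over the 6 libraries, among 11110 genes. For Atf5 they were Smagp (0.0796), Tgm1 (0.0947) and Zbtb10 (0.103). For Hspa5 they were Nup62 (0.0216), Fkbp4 (0.0271) and Akr1b10 (0.0489), and for Ddit3 they were Lrrc42 (0.0994), Ndufaf5 (0.107) and Rnf114 (0.111).

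The wider pathway was read from 9 further lists. Over these, 199 genes were tested, of which 16 (8.04%) were called lower and 6 (3.02%) higher, both below the shares over all genes. Their median log2 difference was -0.10, against -0.15 over all genes. Of the 27 called genes that the naming rule selects from these lists and from the immediate early and interferon lists, 0 kept the call in every fit that left out 1 library, and 14 kept it after median-ratio scaling.

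Among the sensors and the control of eIF2, 1 of 23 genes was lower and 0 higher, and limma gave 9 lower and 1 higher at an unadjusted p under 0.05. After median-ratio scaling 0 were lower and 1 was higher, the interferon-induced kinase gene Eif2ak2 (PKR), named after its values were seen. Eif2ak2 had 33.3, 32.0 and 26.8 TPM in KO libraries, against 26.7, 22.6 and 21.2 TPM in WT libraries, wholly higher in KO, with a limma adjusted p of 0.0595 before scaling and 0.0435 after it. The lower one was Eif2s3x, the gamma subunit of eIF2, with 94.1 ± 5.66 TPM in KO and 119 ± 9.75 TPM in WT (log2 difference -0.34, limma adjusted p = 0.0368). Ern1, which encodes IRE1, had 5.20, 5.25 and 5.65 TPM in KO libraries, against 6.14, 12.8 and 6.73 TPM in WT libraries, and Eif2ak3, which encodes PERK, had 9.27, 11.4 and 11.4 TPM in KO libraries, against 12.4, 21.0 and 15.9 TPM in WT libraries. Both lay wholly lower in KO without a call, with limma adjusted p of 0.127 for Ern1 and 0.056 for Eif2ak3. Without WT replicate 1 both were called, at adjusted p of 0.0446 for Ern1 and 0.00846 for Eif2ak3. Without WT replicate 2, the highest library for both, the log2 difference was -0.22 (adjusted p = 0.219) for Ern1, against -0.52 over all libraries, and -0.37 (adjusted p = 0.132) for Eif2ak3, against -0.55. Eif2ak4, the amino acid sensor GCN2, had 17.6 ± 0.489 TPM in KO and 18.8 ± 2.68 TPM in WT, and Ppp1r15a, the phosphatase subunit GADD34 that reverses eIF2 alpha phosphorylation, had 93.7 ± 14.7 TPM in KO and 106 ± 2.52 TPM in WT. Neither was called, and the log2 difference of Eif2ak4, -0.082, turned to 0.066 after median-ratio scaling, 0.0765 after quantile normalization and 0.025 without WT replicate 2.

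Among 28 ER chaperones and folding enzymes, 2 were higher and 2 lower. Fkbp11, a peptidyl-prolyl isomerase of the secretory pathway, had 29.4, 29.0 and 21.5 TPM in KO libraries, against 16.4, 10.2 and 8.23 TPM in WT libraries, and rose by a log2 difference of 1.17 (limma adjusted p = 0.0219). Ppib, another isomerase, also rose, and the lectin chaperone Canx and the oxidase Ero1lb fell, by log2 differences of 0.33, -0.34 and -0.41. Hsp90b1 had 586 ± 47.4 TPM in KO and 688 ± 66.4 TPM in WT, and Calr 1593 ± 122 TPM in KO and 1407 ± 156 TPM in WT, and neither was called. Of 27 genes of ER-associated degradation, the HRD1 partner Sel1l (47.5 ± 3.73 TPM in KO, 65.3 ± 12.9 TPM in WT) and the deglycosylase Ngly1 (14.7 ± 0.428 TPM in KO, 22.8 ± 2.08 TPM in WT) fell and 0 rose. Of 30 translocation and export genes, the signal peptidase subunit Spcs3 fell and 0 rose. At an unadjusted p under 0.05, limma gave 9 lower and 0 higher for degradation, and 6 lower and 1 higher for translocation and export. For the chaperones and folding enzymes it gave 7 lower and 4 higher.

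The ATF4-dependent amino acid and stress genes held 6 lower genes among 26 tested (23.1%), and 0 higher. Of all tested genes, 10.2% were called lower and 4.47% higher. The median log2 difference of the list was -0.11, against -0.15 over all genes. After median-ratio scaling 2 of the list were called lower, against 3.55% of all genes. Leaving out 1 library gave between 0 and 6 lower genes in the list, and between 80 and 2563 over all genes. At an unadjusted p under 0.05, limma gave 8 lower and 2 higher. Klhl24, a ubiquitin ligase adaptor, had 10.9, 13.3 and 13.2 TPM in KO libraries, against 18.5, 33.5 and 24.7 TPM in WT libraries, wholly lower in KO, and its log2 difference was -0.95 (limma adjusted p = 0.0184). The glutamine transporter Slc38a2 (-0.56), asparagine synthetase Asns (-0.58) and Cebpg (-0.43), a C/EBP partner of ATF4, fell as well, and so did Pck2 (-0.39) and Eif4ebp1 (-0.29), which were named after their values were seen. Atf3, induced by ATF4 and by inflammatory signals, had 220 ± 37.7 TPM in KO and 174 ± 40.2 TPM in WT and was not called. Of 21 aminoacyl-tRNA synthetases, Qars fell and 0 rose, with 3 lower and 0 higher at an unadjusted p under 0.05 (limma).

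Of 13 CHOP-linked cell death genes, 3 rose and 2 fell. Of all tested genes, 4.47% were called higher and 10.2% lower. The inflammatory caspase gene Casp4 had 102, 94.7 and 78.6 TPM in KO libraries, against 60.5, 42.8 and 51.8 TPM in WT libraries, wholly higher in KO, and its log2 difference was 0.82 (limma adjusted p = 0.00952). Bcl2l11, which encodes the death inducer BIM, rose by 0.74 and Bak1, named after its values were seen, by 0.38, while the stress kinase gene Map3k5 fell by 0.53 and the growth arrest gene Gadd45a fell by 0.35 on the log2 scale. Casp4 is also known as an interferon-induced gene, and 6 of the 22 type I interferon genes rose, among them Stat2, Ddx58 and Ifih1, and 0 fell, with 22 higher and 0 lower at an unadjusted p under 0.05 (limma). The part of interferon in these values was not tested. Of 14 genes of the mitochondrial unfolded protein response, the import gene Timm17a rose and the protease gene Yme1l1 fell. Of 17 cytosolic heat shock genes limma called 0 at an adjusted p under 0.05 and 1, lower, at an unadjusted p under 0.05, with log2 differences between -0.39 and 0.18.

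**Figure D5:**
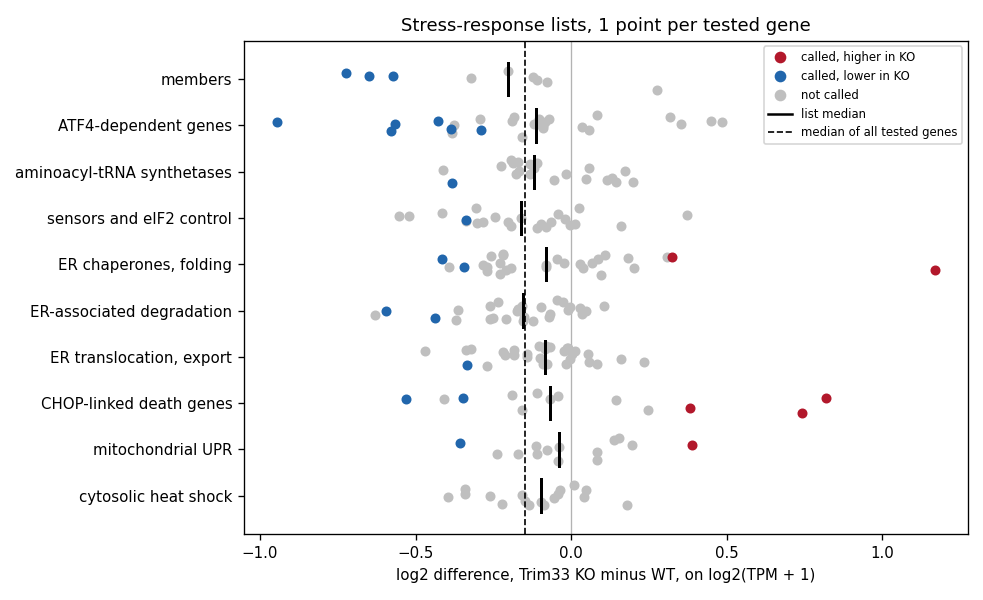
Log2 difference (KO minus WT) of each tested gene of the 10 genes' set and of the 9 further lists, 1 point per gene, red where called higher in KO, blue where called lower and grey where not called, with a black bar at each list's median and a dashed line at the median of all tested genes. Most points lie near the dashed line at -0.15, and the ATF4-dependent list holds 6 blue points and no red ones.

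Further lists were compared between the genotypes in the same way. Their counts stand beside 10.2% of all tested genes called lower and 4.47% called higher, and 3.55% called lower after median-ratio scaling. Of 13 immediate early genes, which respond to cell handling, Btg2, Fosb, Fos and Jun fell and 0 rose. For these genes limma gave 5 lower and 0 higher at an unadjusted p under 0.05. The summed TPM of 14 alveolar macrophage markers was 23220 to 26070 in KO libraries and 32610 to 33850 in WT libraries, with 7 markers lower and 0 higher (limma; 1 higher at an unadjusted p under 0.05), and with 2 lower after median-ratio scaling. It was led by Chil3 (12590 ± 1730 TPM in KO, 18100 ± 993 TPM in WT) and Ear2 (2737 ± 232 TPM in KO, 4257 ± 527 TPM in WT), a near-identical copy of Ear1, so that reads could be split between them. Neither call held after median-ratio scaling, where the limma adjusted p was 0.133 for Chil3 and 0.0582 for Ear2. The marker that was higher at the unadjusted threshold was Car4 (2193 ± 289 TPM in KO, 1481 ± 418 TPM in WT). Its log2 difference was 0.59 (limma adjusted p = 0.075), and the groups overlapped. Itgax also had a positive difference (0.068) without a call, and 12 of the 14 markers had a negative one. Car4 and Itgax were named after their values were seen. Of 11 tested monocyte and interstitial macrophage markers 4 rose and 0 fell (limma, with 8 higher and 0 lower at an unadjusted p under 0.05). The list summed to 531 to 581 TPM in KO libraries and 264 to 400 TPM in WT libraries. Cd14, which was not called (364 ± 78.0 TPM in KO, 291 ± 57.5 TPM in WT), held most of these sums. Without Cd14 the sums were 283, 226 and 84.4 TPM in KO libraries, against 52.9, 31.7 and 31.3 TPM in WT libraries, with KO replicate 3 the lowest KO library. Ly6c2, a monocyte marker, had 74.5, 73.3 and 18.8 TPM in KO libraries, against 6.03, 1.73 and 3.99 TPM in WT libraries, and was called higher. Of the 11 tested markers of this list, 2 had a negative difference without a call. Ccr2, another monocyte marker, had 4.5 ± 1.65 TPM in KO and 4.83 ± 0.946 TPM in WT. Its log2 difference was -0.12 (limma adjusted p = 0.711), and that of Lyve1 was -0.015 (limma adjusted p = 0.963). Ccr2 and Lyve1 were named after their values were seen. Plasma cells are known for high levels of Xbp1 and its targets, and 11 B cell and plasma cell markers summed to 13.5 to 20.6 TPM in KO and 27.9 to 29.1 TPM in WT. Of 4 tested, Jchain fell (1.36 ± 0.217 TPM in KO, 3.47 ± 0.764 TPM in WT), and Prdm1, which macrophages also express, held most of the sum (11.5 ± 4.08 TPM in KO, 19.3 ± 2.32 TPM in WT) and was called lower only without KO replicate 3 among the fits that left out 1 library. Tnfrsf17 was at 0 to 0.12 TPM in both groups and Mzb1 at 0 to 0.50 TPM in KO and 0.23 to 1.46 TPM in WT. Sdc1, also under the filter, went the other way, with 1.26, 0.62 and 0.83 TPM in KO libraries, against 0.30, 0.61 and 0.36 TPM in WT libraries. The other marker lists had between 0 and 1 called gene each, all of them higher: Gzma for T and natural killer cells, Ccr7 for dendritic cells, Tpsb2 for mast cells and basophils, and Hopx for alveolar epithelium. No gene was called in the neutrophil, eosinophil, airway epithelium, or endothelium and fibroblast lists, which had 5, 2, 4 and 8 tested genes, of which 3, 1, 0 and 1 had an unadjusted limma p under 0.05. The most abundant markers of these other lists that were not called averaged, in KO and in WT, 128 and 108 TPM for S100a8, 26.9 and 49.4 TPM for Mmp8, 409.9 and 265 TPM for Ear6, 0.677 and 1.27 TPM for Il5ra, and 1.83 and 0.877 TPM for Lck. Those means were 839 and 257 TPM for Bst2, which is also an interferon gene, 58.5 and 72.7 TPM for Napsa, 101 and 108 TPM for Scgb1a1, 6.91 and 5.11 TPM for Scgb3a1, 9.86 and 8.23 TPM for Col3a1, and 9.81 and 6.82 TPM for Dcn, while Cpa3 was under the filter at 0.070 and 0.143 TPM. The part of these markers in the levels of Atf5, Dnajb9, Herpud1 and Xbp1 was not tested.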

How the data were processed

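Per the labels' protocols, total RNA was extracted with TRIzol and an MGI kit made the libraries. HISAT2 2.0.4, Bowtie2 2.2.5 and GRCm38.p6 are named, per the submitters' processing notes, with no role or order. No source used here states the estimator, the annotation or the use of strand. The authors deposited TPM values and, in a second table, FPKM values, per the file headers, both rounded to 2 decimals. TPM fixes the total of each library, so a rise of abundant genes lowers the others, and depth is lost.

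Groups came from the genotype labels, 3 KO and 3 WT libraries. Log2(TPM + 1) values, with a pseudocount of 1, were compared with limma 3.58.1 in R 4.3.3 (trend and robust variance moderation, two-sided), which understates changes of low genes. Tested were genes that reached 1 TPM in 3 or more of the 6 libraries, with Benjamini-Hochberg adjustment over all of them and a threshold of 0.05. A list was described by counts and its median, with no set test. Members and lists were chosen with earlier results of these data known. Of the rows, 17024 (99.3%) matched RefSeq by Entrez ID, the source of coordinates and promoters. Exon overlaps between genes were taken from GENCODE.

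Named were the 10 members, Trim33, up to 4 called genes of smallest adjusted p per pathway list, Ern1, Eif2ak3, Eif2ak4, Ppp1r15a, Hsp90b1, Calr, Asns and Atf3, up to 2 most abundant genes per marker list, and the 3 nearest profiles of Hspa5, Ddit3 and the member with the largest difference. Of the genes that this rule selects, 1 is left out here, and some of those named are given without values. Alternatives were FPKM values, quantile normalization, median-ratio scaling, plain variance moderation, a minimum of 5 TPM, no filter at all, pseudocounts of 0.1 and 5, the replicate number as a block, leaving out each library, and leaving out WT replicate 1 with KO replicate 3. On simulated data for this comparison (11111 genes), the fit called 82 of 100 genes given a log2 change of 1, and 97 of 100 given one of 2, and 6 of its 185 calls were false. The simulated noise was independent between genes, with no shift shared by a library, and no change smaller than 1 was simulated. The called members differed by less than 1, so these rates do not describe their calls. Figures used matplotlib 3.10.9 in Python 3.11.15.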

Additional observations from a re-analysis of the deposited data

How the results depend on the processing

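Atf5, Dnajb9 and Hspa5 kept direction and side of the threshold in all 16 alternatives, Herpud1 lost its call in 5, Xbp1 gained one in 2 and Ddit3 in 1. Median-ratio scaling turned the log2 difference of Atf4 to 0.032, Atf6 to 0.037, Trib3 to 0.041, Eif2ak4 to 0.066 and Akr1b10 to 0.022, and quantile normalization turned Atf6 to 0.057, Trib3 to 0.0104 and Eif2ak4 to 0.0765. Leaving out 1 library gave ranges of -0.19 to 0.0185 for Atf6, -0.155 to 0.025 for Eif2ak4, -0.49 to 0.11 for Scgb1a1 and -0.088 to 0.49 for Scgb3a1. The cause of these changes was not tested.

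Over all genes, 1129 were lower as reported, 326 without the filter, 394 after median-ratio scaling, 587 after quantile normalization, 672 with plain variance moderation, 1961 without WT replicate 1 and KO replicate 3, and 80 to 2563 without 1 library. Higher genes numbered 497 as reported and 119 to 798 without 1 library. Of the members, 1 (Ddit3) was called higher without WT replicate 1 and KO replicate 3. Of the ATF4-dependent genes, 6 were lower as reported, 1 without the filter, 3 on FPKM values, 2 after median-ratio scaling, 2 after quantile normalization and 0 to 6 without 1 library. In that list 1 was higher with plain variance moderation, 1 without both libraries, and 0 to 1 without 1 library.

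The labels give same-numbered libraries only a number in common. Their deviations correlated at 0.323, -0.0325 and 0.0854 for replicates 1, 2 and 3, and 0.323 was the highest value of any KO and WT pair. Deviations from a mean of 3 libraries depend on each other, so these correlations cannot show whether the libraries were paired. With the replicate number as a block, 753 genes were higher and 2147 lower, Xbp1 was called (adjusted p = 0.0161), and 2 ATF4-dependent genes were called higher. Not every library correlated best with its own number, and KO replicate 3 correlated at 0.297 with WT replicate 2. Depth is unknown for TPM, so the counting error of low genes such as Chac1 and Trib3 cannot be given.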
